A study of Mus musculus with 31 samples.

Results

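Cytosolic ribosomal protein genes encode the proteins of the small (Rps) and large (Rpl) subunits of the ribosome that translates nuclear messages. They were taken by gene symbol, as Rpsa, the P-stalk genes Rplp0 to Rplp2, and the Rps and Rpl symbols that end in a number with at most a letter a, l or x after it. The pattern chose 83 of the 48211 genes listed for all 31 libraries, 32 of the small and 51 of the large subunit. The pattern itself uses no measured value, but it was chosen with earlier results of these data known. Of the 83, 80 are annotated as protein coding in GENCODE vM21. Rpl32l and Rpl6l are annotated there as processed pseudogenes and Rps4l as a transcribed processed pseudogene, although their symbols fit the pattern.

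The study measured polyadenylated RNA of mouse models of peripheral T-cell lymphoma. In these mice, labelled strain C57B/6, a conditional Vav1-Myo1f fusion joins a guanine nucleotide exchange factor of T cell receptor signalling to a class I myosin. The allele is paired with CD4-Cre, active from T cell development onward, or with CD4-CreERT2, whose Cre needs tamoxifen, and control mice carried the same Cre without the fusion. The pre-lymphoma set was made of CD4+ T cells of CD4-CreERT2 mice, with 2 control libraries, 3 libraries whose genotype label joins control and fusion by a slash (control/fusion here), and 3 with the fusion on both sides of the slash (fusion/fusion here). What the slash stands for is not given in the labels. The CD4-Cre set held CD4+ T cells of 3 control and 4 tumor mice and whole spleen of 3 control and 3 tumor mice. For CD4-CreERT2 there were CD4+ libraries of 2 control and 2 tumor mice, with 3 control and 3 tumor spleens. Tumor mice carried the fusion allele as fl/wt, and the labels of the pre-lymphoma fusion samples also give it as fl/wt with CD4-CreERT2, on 1 or both sides of the slash. Neither age nor tamoxifen dose is given in the labels. Since no label says whether each pre-lymphoma library is an animal of its own, the p-values cover only the spread among these samples, which may be technical. The number VM645 stands on a tumor library and on a pair of control libraries.

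A ribosome needs about equal numbers of its proteins, and most ribosomal protein messages share a short run of pyrimidines at the 5′ end, the TOP motif. Through it, LARP1 and the kinase mTORC1 set how strongly the messages are translated, so that RNA level and protein output can part. A T cell that leaves rest makes more ribosomes before it divides. Free Rpl5 and Rpl11, bound to 5S rRNA, hold back the p53 inhibitor Mdm2, and Rps27l is a paralog of Rps27 known as a p53 target. Loss of one copy of several of these genes causes Diamond-Blackfan anaemia in people.

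Start-site windows show how pyrimidine runs lie around the listed starts of 8 genes named in the results. Each window, from RefSeq on build GRCm38.p6, holds 20 bases before the start site and 10 bases from it on, 5′ to 3′ on the gene's strand. Capitals mark the longest run of C and T that covers the start site or begins or ends within 5 bases of it. The first 4 genes fell in fusion/fusion cells, Rplp2 fell there too and was higher in CreERT2 CD4+ cells than in spleen, Rpl35 had the largest difference after Rps27l among the common members between CD4+ cells and spleen of CD4-Cre controls, Rps6 is a member that passed no pre-lymphoma test, and Rps27l rose in fusion/fusion cells. For Rps24 and Rps27l, which have several listed start sites, the most upstream is shown.
Rps27, chr3:90213639-90213668, minus strand: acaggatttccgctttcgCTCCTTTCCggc
Rps24, chr14:24490658-24490687, plus strand: acgcccccgcgctggggTCCTTCCTTgcgc
Rpl12, chr2:32961692-32961721, plus strand: gcgtgggcggagcaggatccgTCTTTTCgg
Rps10, chr17:27635235-27635264, minus strand: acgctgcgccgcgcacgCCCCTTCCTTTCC
Rplp2, chr7:141447631-141447660, plus strand: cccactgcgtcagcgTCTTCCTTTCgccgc
Rpl35, chr2:39005122-39005151, minus strand: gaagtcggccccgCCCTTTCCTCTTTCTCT
Rps6, chr4:86857358-86857387, minus strand: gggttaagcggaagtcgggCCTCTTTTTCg
Rps27l, chr9:66946066-66946095, plus strand: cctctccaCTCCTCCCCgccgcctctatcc
In all 8 windows the run has at least 7 pyrimidines. These windows do not stand for all members, whose median run is 5 bases. The listed sites of Rpl5 and Rps19, which also fell in fusion/fusion cells, are not shown and have shorter runs. These have 3 bases for Rpl5 and 4, 4 and 1 for the Rps19 sites. Other members that fell there have runs of 5 bases in Rps7, 4 in Rpl13, 3 in Rps4x and 2 in Rpl23, while the Rps21 sites have 7 and 4. The sites of Rps24 and Rps27l that are not shown have runs of 2 and 4 bases. In the window of Rps27l the run ends 4 bases before the start site, outside the listed message, whose first base is G. In Rpl12 the first base is G too, and the run begins just after it. In Rps27 the run covers the start site and the first base is C.

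RefSeq listed 73 start sites for 61 of the members, and the other 22 had no entry. A run of at least 8 pyrimidines stood at 32.9% of the members' start sites, against 9.72% of all 32851 promoters. The median run was 5 bases for members and 3 for all promoters. Transcription was listed to start at C for 28.8% of member sites and 16.3% of all sites. The ETS-type motif CCGGAAG, read on both strands in the 300 bases around the start, was found in 35.6% of member promoters and in 8.86% of all. CCATCTT, the core of a YY1 motif, was found on either strand in 15.1% against 6.34%. TATAAA on the gene's strand between 15 and 40 bases before the start was found in none of the 73, against 1.99% of all. None of these motifs contains another. The genes are short and spread over 19 chromosomes, with a median coding length of 457.5 bases in 5 exons. They have 292 named pseudogenes, and 60 members have at least 1. Exon bases of 37 members are shared with another annotated gene, and of 15 with a protein-coding one. The library kit does not mark strand, so reads of overlapping genes cannot be told apart.

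Libraries held 12632196 to 37568512 gene counts, and between 18368 and 34546 genes had at least 1 count. The summed level of 8 T cell markers was 3951 to 6045 CPM (gene counts relative to library size, here scaled by TMM, the trimmed mean of M-values) in all CD4+ libraries and 738 to 1943 CPM in spleens. B cell markers, 9 genes, summed to 460 to 678 CPM in pre-lymphoma CD4+ libraries and to 840 to 1358 CPM in CD4-Cre control CD4+ cells. In CD4-CreERT2 control CD4+ cells they reached 2793 to 2955 CPM, so B cell RNA was present in cells labelled CD4+ T cells. Macrophage and monocyte markers, 12 genes, summed to 4943 to 7283 CPM in CD4-Cre and to 566 to 1143 CPM in CD4-CreERT2 control CD4+ cells, with 1 of 12 under 1 CPM in the latter. In bulk samples, fewer cells of a type and less RNA per cell cannot be told apart.

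Ribosomal protein genes took 1.28% to 6.98% of all gene counts of a library, and the sets lay apart. In the pre-lymphoma set the share was 6.88% and 6.98% in control, 6.14%, 5.97% and 6.58% in control/fusion, and 5.65%, 6.70% and 6.75% in fusion/fusion cells. In the CD4-Cre set it was 2.36%, 2.70% and 2.67% in control CD4+ cells and 2.81%, 2.85% and 2.80% in control spleen. In the CD4-CreERT2 set it was 1.91% and 2.01% in control CD4+ cells and 1.41%, 1.66% and 1.77% in control spleen. Control CD4+ cells of the pre-lymphoma set thus gave more than the other control CD4+ cells, and the lowest pre-lymphoma library, at 5.65%, lay above every library of the other sets. No test was made between these levels of the sets, which differ in Cre driver, in the kind of count table or in both. Exact 95% Clopper-Pearson intervals of the 2 control shares in the pre-lymphoma set, 6.87% to 6.89% and 6.97% to 6.99%, cover counting error only and are far narrower than the spread between libraries.

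**Figure D1:**
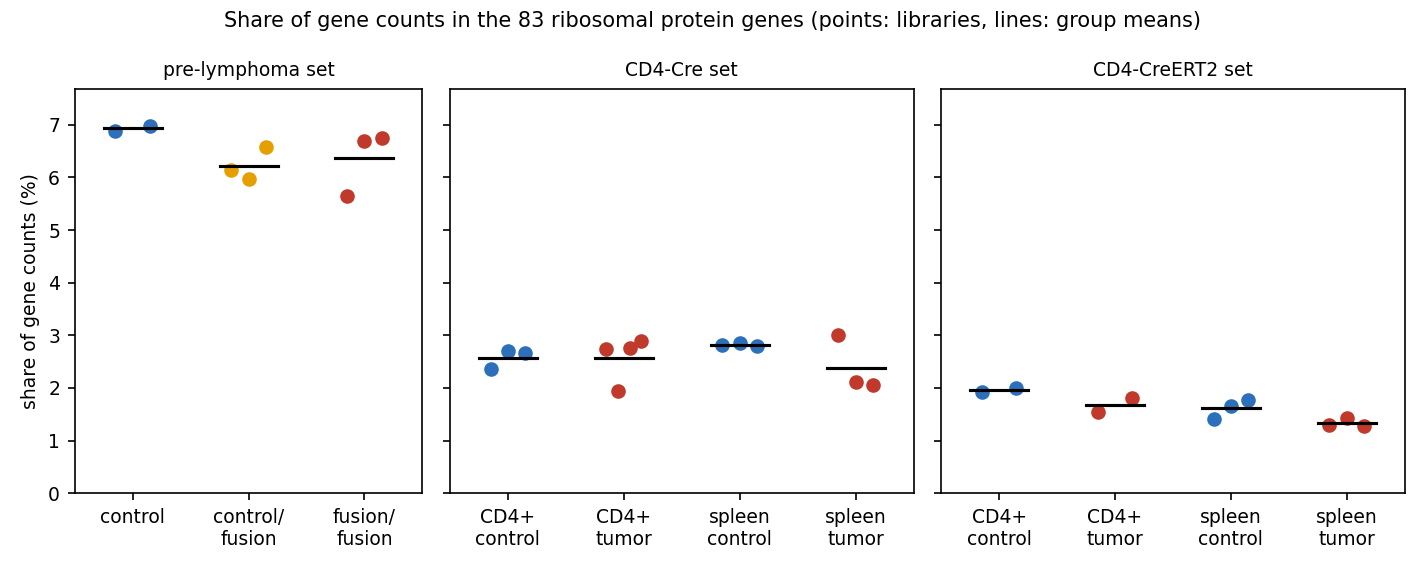
Share of all gene counts that fell on the 83 ribosomal protein genes, in percent, for every library by group; points are libraries and lines are group means. Pre-lymphoma libraries lie at 5.65% to 6.98%, CD4-Cre libraries at 1.94% to just under 3% and CD4-CreERT2 libraries at 1.28% to 2.01%.

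Levels differed widely among the members. Rpsa, a small-subunit protein also known as the laminin receptor precursor, was the most counted member in pre-lymphoma control cells, at 3.76% of the members' counts, before Rplp0 at 3.58% and Rpl4 at 3.49%. Per kilobase of transcript Rps27 was the highest member in control cells of every set, at 4431 CPM per kilobase in the pre-lymphoma set, 1839 in CD4-Cre and 1239 in CD4-CreERT2 CD4+ cells. In pre-lymphoma control cells Rplp1 followed at 3940 and Rps29 at 3534 CPM per kilobase.

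At the low end, 6 members stayed under 10 CPM in pre-lymphoma control cells. Rpl10l, a testis-type copy of Rpl10, was at 0 in 29 of 31 libraries; Rpl3l, the muscle-type copy of Rpl3, and Rpl39l did not exceed 2.19 CPM in any. Some common members were low in only one kind of table. Rpl24, a large-subunit protein, averaged 2.37 CPM of raw counts in CD4-Cre and 52.8 CPM in CD4-CreERT2 control CD4+ cells. Rps10 gave 5.48 against 115 CPM, Rpl13a 10.5 against 69.3 CPM and Rpl23a 23.2 against 102 CPM in the same groups. Rpl6l, annotated as a pseudogene, was at 108 and 112 CPM in the 2 pre-lymphoma controls. Rpl32l and Rps4l, also annotated as pseudogenes, averaged 0.24 and 2.13 CPM of raw counts there. The CD4-CreERT2 tables were made with another layout and gene list. Rpl24, Rps10, Rpl13a and Rpl23a all share exon bases with another annotated gene, which was not tested as a cause.

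The pre-lymphoma comparisons ask what the fusion changes in CD4+ cells before lymphoma. In fusion/fusion against control cells, Rps27l rose and Rps27, Rps19, Rpl5 and Rpl12 were among the members that fell. Of 80 members tested, 16 fell and 2 rose (edgeR quasi-likelihood F test, two-sided, Benjamini-Hochberg adjusted p under 0.05 over all genes), against 45.7% of all 16257 genes called in either direction and 22.0% called lower. Rpl10l, Rpl32l and Rpl3l had too few counts to be tested. The members' share called lower was thus close to the background, and the share called higher far below the 23.8% of all genes. The median log2 fold change was -0.11 for members and -0.01 for all genes. On leaving out 1 library the members' median ranged from -0.16 to -0.044. Without fusion/fusion replicate 1, the library of lowest share, 9 members fell and the median was -0.044. Leaving out control replicate 1 left 7 and leaving out control replicate 2 left 3.

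Rps27l stood apart from the other members. It was at 22.15 and 22.09 CPM in control, 29.8, 28.4 and 27.3 CPM in control/fusion, and 34.1, 46.7 and 36.8 CPM in fusion/fusion cells. The 3 groups did not overlap, and the order followed the label. Against control it rose by 0.82 ± 0.12 (log2 ± SE) in fusion/fusion cells, with adjusted p = 0.000455 by edgeR, and by 0.46 ± 0.11 against control/fusion cells with adjusted p = 0.017. In control/fusion against control the log2 fold change was 0.36 ± 0.12 with adjusted p = 0.061 by edgeR. That difference passed with DESeq2 (adjusted p = 0.046), without scaling factors (0.044), without the low-count filter (0.012) and with only these groups in the fit (0.022).

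Its partner Rps27 went the other way. Rps27 was at 1476 and 1581 CPM in control, 1190, 1084 and 1292 CPM in control/fusion, and 978, 1235 and 1255 CPM in fusion/fusion cells. Both fusion groups lay below control and overlapped each other. The fall was -0.40 ± 0.11 in fusion/fusion (edgeR adjusted p = 0.015) and -0.36 ± 0.11 in control/fusion cells (adjusted p = 0.046). The first missed the threshold without control replicate 2 (adjusted p = 0.085), and the second without scaling factors (0.0503) and without any of 4 libraries in turn (0.083 to 0.22). Rps27l counts per 100 Rps27 counts went from 1.5 and 1.4 in control to 2.51, 2.62 and 2.11 in the control/fusion libraries and 3.49, 3.78 and 2.93 in the fusion/fusion libraries. The coding sequences are 76.1% identical and share none of the 50-base windows, so reads of that length separate them.

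**Figure D2:**
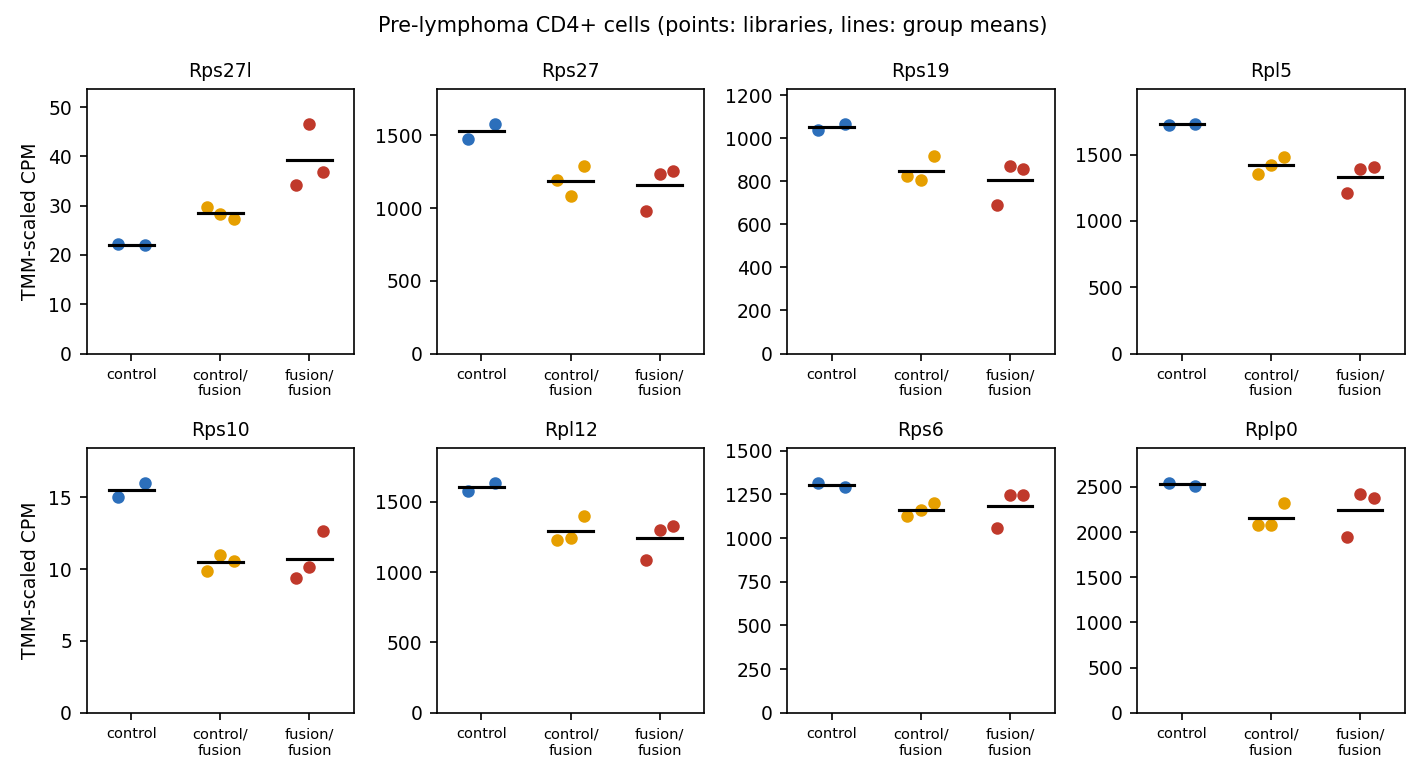
TMM-scaled CPM of 8 ribosomal protein genes in the pre-lymphoma CD4+ libraries, by group; points are libraries, lines are group means, and each vertical axis starts at 0 with its own range. Rps27l lies at 22.09 and 22.15 CPM in control and at 34.1 to 46.7 CPM in fusion/fusion cells, while Rps27, Rps19, Rpl5, Rps10 and Rpl12 lie lower in both fusion groups than in control.

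Both subunits held members that fell, where 22.0% of all genes were called lower. Of 32 small-subunit members tested, 10 fell and 2 rose with a median of -0.20, and of 48 large-subunit members 6 fell and none rose with a median of -0.09. The difference between the subunits was not tested. Rps19, needed for the maturation of the small subunit and the most often mutated gene of Diamond-Blackfan anaemia, was at 1038 and 1069 CPM in control, 824, 808 and 919 CPM in control/fusion, and 690, 872 and 856 CPM in fusion/fusion cells. All 6 fusion libraries lay below both controls. The difference in fusion/fusion cells was -0.39 ± 0.10 with edgeR adjusted p = 0.011, and it was -0.31 ± 0.10 in control/fusion samples with adjusted p = 0.058.

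Rps10, which sits near the messenger entry side of the small subunit, had the largest fall but a low level. It was at 15.1 and 16.0 CPM in control, 9.89, 10.96 and 10.6 CPM in control/fusion, and 9.35, 10.2 and 12.6 CPM in fusion/fusion cells. No fusion library reached a control. The differences were -0.55 ± 0.14 (edgeR adjusted p = 0.0093) in fusion/fusion and -0.57 ± 0.14 (adjusted p = 0.018) in control/fusion cells. Its exons overlap a readthrough gene with Nudt3 in the annotation. Further small-subunit members that fell in fusion/fusion cells, chosen for mention after their values were seen, were Rps29, Rps24, Rps21, Rps7 and Rps4x, between -0.37 and -0.23, with Rps27a, a fusion of ubiquitin with a ribosomal protein, at -0.32.

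Rps24, a small-subunit protein also mutated in Diamond-Blackfan anaemia, was at 2134 and 2338 CPM in control, 1762, 1725 and 1888 CPM in control/fusion, and 1511, 1818 and 1867 CPM in fusion/fusion samples. Both fusion groups lay below control and overlapped each other. The differences were -0.37 ± 0.10 (edgeR adjusted p = 0.012) in fusion/fusion and -0.32 ± 0.10 (adjusted p = 0.045) in control/fusion samples. Of the 10 Diamond-Blackfan genes listed, 5 fell in fusion/fusion and 3 in control/fusion cells, with medians of -0.24 and -0.22, where 22.0% and 8.70% of all genes were called lower.

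In the large subunit, Rpl5 of the 5S particle fell and its partner Rpl11 did not pass. Rpl5 was at 1726 and 1735 CPM in control, 1355, 1422 and 1482 CPM in control/fusion, and 1208, 1391 and 1407 CPM in fusion/fusion cells. Both fusion groups lay below control. The differences were -0.37 ± 0.08 (edgeR adjusted p = 0.0042) and -0.29 ± 0.08 (adjusted p = 0.035) for fusion/fusion and control/fusion cells. Rpl11 was at -0.10 ± 0.10 in fusion/fusion cells (adjusted p = 0.47), and whether both genes differ in response was not tested.

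Rpl12, which forms the base of the P stalk where elongation factors bind, was at 1577 and 1634 CPM in control, 1230, 1240 and 1398 CPM in control/fusion, and 1087, 1302 and 1330 CPM in fusion/fusion cells. It fell by 0.37 ± 0.10 on the log2 scale in fusion/fusion cells (edgeR adjusted p = 0.010). Of the stalk proteins, Rplp2 fell by 0.28 ± 0.09 (adjusted p = 0.029), while Rplp1 at -0.23 ± 0.10 (adjusted p = 0.091) and Rplp0 at -0.17 ± 0.10 (adjusted p = 0.20) did not pass. Rpl13, Rpl8 and Rpl23 fell by 0.29, 0.28 and 0.25. These and Rpl12 lie outside the naming rule. None of the 7 proteins at the rim of the exit tunnel passed, from -0.16 to -0.05. Rpsa was at 2642 and 2660 CPM in control and at 2337, 2939 and 2868 CPM in fusion/fusion samples, on both sides of control. Rpsa at 0.03 ± 0.11, Rpl22 at 0.01 ± 0.08, Rpl41 at 0.16 ± 0.17 and Rps6, a substrate of the S6 kinases, at -0.14 ± 0.08 did not pass either.

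Control/fusion cells showed a like direction with fewer calls. There 7 of 80 members fell and 1 rose, against 20.3% of all genes called in either direction, 8.70% lower and 11.6% higher, so the share lower was again close to the background. The members' median was -0.16 against 0.00 for all genes, and 74 of 80 estimates were below 0. The genes that fell were Rps10, Rps27, Rps21, Rps24, Rpl12, Rpl5 and Rps29. Without control replicate 1 the number that fell was 1 and without control replicate 2 it was 0. Without control/fusion replicate 1, 2 or 3 it was 1, 1 or 4. Both comparisons use the same 2 control libraries, so their directions are not independent. The 1 gene that rose was Rps4l, outside the naming rule for its level of 1.74 to 5.15 CPM, and it passed in none of the fits that left out 1 of these 5 libraries.

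Group ranges gave a wider picture. In fusion/fusion against control, 40 of 80 members had every fusion/fusion library below both controls and 2 had every one above, against 32.8% and 33.1% of all genes. In control/fusion against control the counts were 50 lower and 2 higher, against 26.2% and 26.4% of all genes. Of all members tested, 62.5% thus lay below control in control/fusion cells, and 2.5% above it in either comparison. Fusion/fusion against control/fusion cells differed in 1 member, Rps27l, against 18.9% of all genes called (9.59% higher and 9.30% lower), with a member median of 0.03 that ranged from -0.019 to 0.10 on leaving out 1 library. Without control/fusion replicate 3 it no longer passed, and without fusion/fusion replicate 1, 4 members were higher. Large-subunit counts per small-subunit count rose from 1.18 in both controls to 1.21 to 1.22 in the control/fusion libraries and 1.23 in the fusion/fusion libraries, with no overlap between groups.

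Replicates of the members lay close together in control and less so in fusion/fusion cells. The median SD of a member on the log2 scale was 0.032 over the 2 control, 0.091 over the 3 control/fusion and 0.16 over the 3 fusion/fusion libraries, where all genes gave 0.071, 0.081 and 0.096. In fusion/fusion replicate 1 Rplp0 was at 1944 CPM, against 2422 and 2376 CPM in the other 2 libraries and 2546 and 2510 CPM in control. Rpl41, the shortest of the proteins, was at 758 CPM in that library and at 1263 and 1167 CPM in the others, above and below the controls at 942 and 963 CPM.

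Other genes of translation moved unevenly in the same cells. In fusion/fusion against control cells, 22.0% of all genes were called lower and 23.8% higher. Rpl22l1, a paralog of Rpl22 outside the symbol pattern, was at 54.0 and 60.1 CPM in control, 44.1, 43.3 and 47.9 CPM in control/fusion, and 43.3, 46.6 and 48.2 CPM in fusion/fusion cells, and fell by 0.31 ± 0.08 (edgeR adjusted p = 0.0087) in the last. Of 16 other TOP messages of translation, Tpt1 fell by 0.36 ± 0.09, Btf3 was higher by 0.30 ± 0.07 and Nap1l1 by 0.19 ± 0.07, and 13 did not pass. Of 8 regulators of TOP messages, 5 fell and 1 rose. Mtor was at -0.50 ± 0.08, Rptor, the mTORC1 scaffold, at -0.40 ± 0.07, Larp1 at -0.38 ± 0.07, and Eif4ebp1, an inhibitor of cap binding, at 0.80 ± 0.15.

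In the same comparison 22.0% of all genes were called lower and 23.8% higher. Of 17 ribosome biogenesis genes 9 fell and 1 rose, with a median of -0.19. They held the RNA polymerase I subunits Polr1a at -0.71 ± 0.08 and Polr1b at -0.55 ± 0.07, the assembly factors Wdr12 at -0.55 ± 0.07 and Rrp12 at -0.53 ± 0.08, and, higher, nucleolin (Ncl) at 0.26 ± 0.06. Myc did not pass, at -0.13 ± 0.10 (edgeR adjusted p = 0.34). Of the mitochondrial ribosomal proteins, which form a separate ribosome, 28 of 77 rose and 4 fell, with a median of 0.17. Mrps6 was highest at 0.94 ± 0.16 and Mrpl52 followed at 0.75 ± 0.12.

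Among 8 tested p53 targets 3 rose and 1 fell, against 23.8% of all genes called higher and 22.0% called lower. The cell cycle inhibitor Cdkn1a went from 2.20 and 2.27 CPM in control over 6.67, 2.78 and 4.72 CPM in control/fusion to 8.07, 14.0 and 9.89 CPM in fusion/fusion cells, a rise of 2.24 ± 0.34 (edgeR adjusted p = 0.00053). Phlda3 rose by 1.35 ± 0.27 and Pmaip1 by 0.91 ± 0.13, while Bbc3 was at -0.45 ± 0.15. Mdm2 was at 106 and 97.2 CPM in control and at 98.4, 95.5 and 101 CPM in fusion/fusion cells, which overlapped. All 12 cell division genes rose with a median of 2.27, and all 12 genes of naive T cells fell with a median of -1.11. Markers of other cells moved with the group too: all 9 tested erythroid markers rose (62.3 to 141 CPM summed over 10 markers in control, 360 to 426 CPM in fusion/fusion cells), as did all 6 plasma cell markers (443 to 677 against 1301 to 1492 CPM). Macrophage and monocyte markers summed to 2139 and 2687 CPM in control, 5460, 2677 and 3358 CPM in control/fusion, and 2946, 3558 and 2704 CPM in fusion/fusion cells. The part of these markers in the members' differences was not tested.

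**Figure D3:**
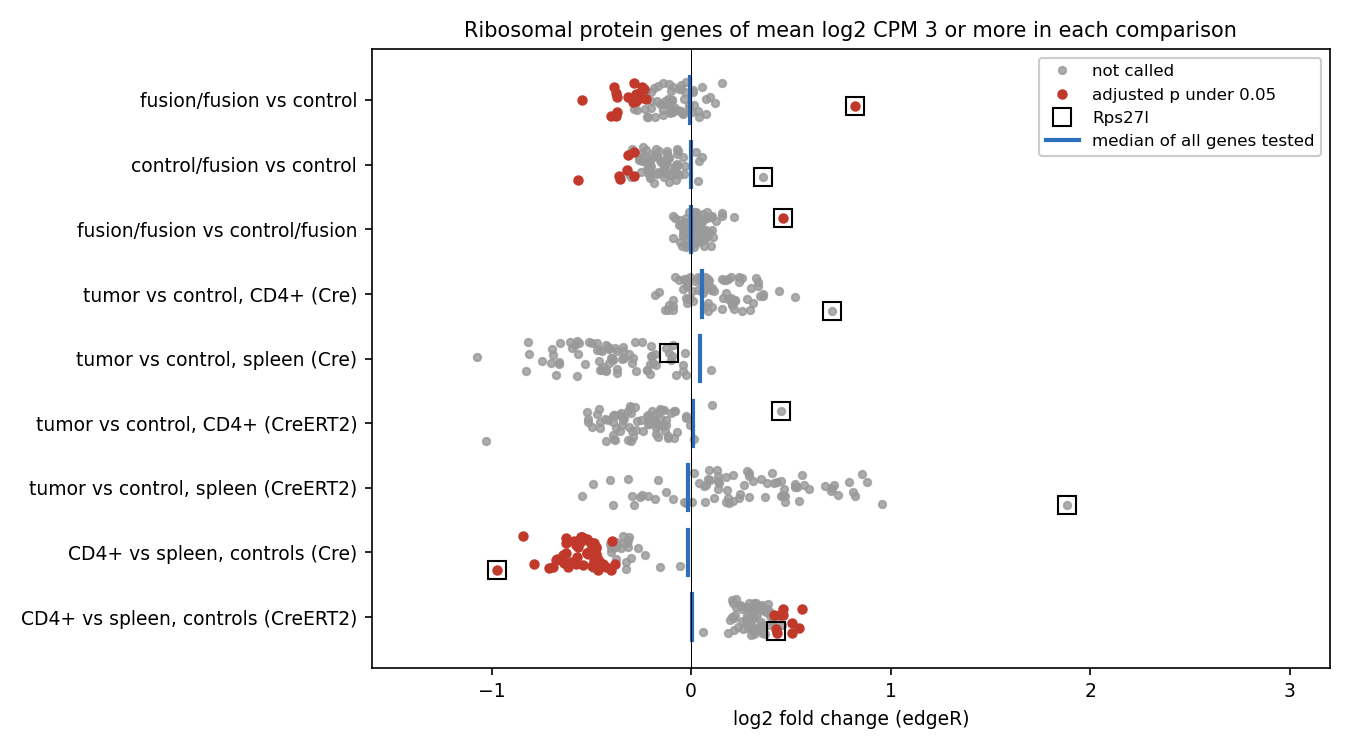
Log2 fold changes of the ribosomal protein genes with a mean log2 CPM of at least 3, in 9 comparisons; each point is a gene, red where the edgeR adjusted p was under 0.05, squares mark Rps27l and blue bars the median of all genes tested. Most members lie left of the blue bar against control in both fusion groups, in CD4-Cre spleen and CreERT2 CD4+ tumors and in the CD4-Cre tissue contrast, and all lie to its right in the CreERT2 tissue contrast. Rps27l is the rightmost member in 6 of the first 7 lines, CD4-Cre spleen tumors being the other.

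The tumor comparisons ask what differs in established lymphoma. By edgeR no ribosomal protein gene passed in any of the 4, while DESeq2 called 3 in CD4-Cre spleen and 2 in CD4-CreERT2 spleen. Shares of all genes are not given here for DESeq2 calls or for unadjusted p under 0.05. Counts of members by those measures therefore cannot be set against a background. In CD4-Cre CD4+ cells the share of counts was 2.74%, 1.94%, 2.75% and 2.89% in tumors (VM388, VM58, VM645 and VM98) against 2.36%, 2.70% and 2.67% in controls, so the groups overlapped. Of 80 members 0 were called by edgeR and 0 by DESeq2, against 0.157% of all genes by edgeR, and 2 had an unadjusted p under 0.05. The member median was 0.08 against 0.06 for all genes, and its sign and size rest on single libraries: it was -0.054 without the tumor of VM98, -0.00059 and 0.14 without the CD4+ controls of VM211 and VM645, and 0.26 and 0.024 without the tumors of VM58 and VM645. Macrophage and monocyte markers summed to 505 to 4422 CPM in tumors and 4943 to 7283 CPM in controls. The VM98 tumor library had 14.6% of its counts in immunoglobulin genes, against 0.49% to 0.66% in the other tumors and 2.67% to 6.88% in controls. Its plasma cell markers summed to 7681 CPM, against 501 to 1015 CPM in the other tumors and 1718 to 7663 CPM in controls. Neutrophil markers summed to 2029 CPM there, against 1.95 to 555 CPM and 186 to 960 CPM. The part of these other cells was not tested. All tumors lay above the controls for 2 members and below for none, against 8.34% and 9.07% of all genes. Rpl28, a large-subunit protein, was at 110, 89.1, 111 and 137 CPM in tumors and at 64.1, 85.5 and 79.1 CPM in controls. Its groups did not overlap, and it had an estimate of 0.52 ± 0.19 with edgeR adjusted p = 0.26. The median SD of a member within the tumor group was 0.40 on the log2 scale, against 0.17 in the CD4-Cre control CD4+ cells.

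In CD4-Cre spleen no member passed by edgeR. The share was 2.9995%, 2.11% and 2.05% in tumors (VM388, VM58 and VM98) against 2.81%, 2.85% and 2.80% in controls. By edgeR 0 of 81 members passed, against 0.0% of all genes, while 14 reached an unadjusted p below 0.05. With DESeq2 3 were called lower. Neither the 14 nor the 3 has a share of all genes beside it. Estimates were below 0 for 79 of 81, with a median of -0.40 against 0.04 for all genes, and of -0.19 without the tumor of VM58. Neutrophil markers summed to 175, 225 and 74928 CPM in tumors (VM388, VM58 and VM98) and to 6919 to 49003 CPM in controls, and macrophage and monocyte markers to 4834, 4367 and 22337 CPM against 13178 to 24310 CPM. Their part in the members' levels was not tested. Every tumor library lay below every control for 38 members, and above them for none, each against 11.2% of all genes. Rps27 was at 981, 965 and 998 CPM in controls and at 641, 312 and 455 CPM in tumors, with an estimate of -1.07 ± 0.30 and edgeR adjusted p = 0.25, or 0.037 with DESeq2. Rpl37a, a zinc-binding large-subunit protein, was at 720, 725 and 795 CPM in controls and at 490, 325 and 453 CPM in tumors. Its groups did not overlap either, and its estimate was -0.83 ± 0.24 (adjusted p = 0.26).

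In CD4-CreERT2 tumors no member passed in either tissue by edgeR. In CD4+ cells the share was 1.54% and 1.82% in tumors against 1.91% and 2.01% in controls, with no overlap. Of 81 members 0 passed by edgeR and by DESeq2, against 0.0% of all genes, and 1 had an unadjusted p under 0.05. All tumor libraries lay below the controls for 53 members, against 16.8% of all genes, and above for 1, against 13.4%. Macrophage and monocyte markers summed to 3706 to 5221 CPM in these tumors and 566 to 1143 CPM in the controls, B cell markers to 448 to 1448 against 2793 to 2955 CPM, and neutrophil markers to 80.3 to 5974 against 42.1 to 61.0 CPM. Mitochondrially encoded genes took 0.50% and 0.90% of counts in tumors and 1.24% and 1.37% in controls. The part of these in the members' levels was not tested. Rpl34 was at 149 and 167 CPM in controls and at 90.8 and 63.4 CPM in tumors, an estimate of -1.03 ± 0.29 with edgeR adjusted p = 0.92. The member median was -0.25 against 0.01 for all genes. Leaving out 1 library gave a member median of -0.28 to -0.22.

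In CD4-CreERT2 spleen the share was 1.29%, 1.43% and 1.28% in tumors against 1.41%, 1.66% and 1.77% in controls. Yet the member median was 0.24 against -0.02 for all genes after TMM scaling, and -0.29 against -0.46 without scaling factors, so its sign depends on the scaling. The spleen tumor of VM294 has 26.8% of its counts in immunoglobulin genes and a scaling factor of 0.60. Without VM294 the member median was 0.062, and without VM236 and the control of A3 it was 0.50 and 0.40. Neutrophil markers summed to 2620 to 103233 CPM in tumors against 363 to 832 CPM in controls, macrophage and monocyte markers to 5926 to 15843 against 1491 to 1852 CPM, and B cell markers to 1074 to 6131 against 9375 to 9671 CPM. Mitochondrially encoded genes took 0.44% to 0.77% of counts in tumors and 1.19% to 1.40% in controls. Their part in the members' levels was not tested. Relative to all genes, members lay higher by 0.26 with and 0.16 without scaling factors. By edgeR 0 of 81 members passed, against 0.0% of all genes, and 3 reached an unadjusted p below 0.05. With DESeq2 2 were called higher. Members whose tumors all lay above the controls numbered 12 and below 2, against 15.1% and 19.4% of all genes.

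Rps27l had the highest estimate of the common members in 3 of the 4 tumor comparisons, although it passed in none by edgeR. In CD4-Cre CD4+ cells it was at 105, 67.6, 154 and 78.2 CPM in tumors and 51.1, 62.9 and 67.8 CPM in controls, an estimate of 0.70 ± 0.29 with adjusted p = 0.30. Of the 4 tumors, VM58 lay just below the highest control. In CD4-CreERT2 spleen it was at 105, 91.5 and 381 CPM in tumors and 56.0, 58.7 and 49.0 CPM in controls, without overlap. The estimate there was 1.88 ± 0.63, with adjusted p = 0.19 by edgeR and 0.040 by DESeq2, and 0.86 without VM294, the library at 381 CPM. In CD4-CreERT2 CD4+ cells the tumors were at 139 and 56.4 CPM and the controls at 63.9 and 79.9 CPM (0.45 ± 0.47, edgeR adjusted p = 1.0). In CD4-Cre spleen they were at 171, 50.5 and 111 CPM, with controls at 90.9, 116 and 149 CPM (-0.11 ± 0.42, adjusted p = 0.93), and the estimate was 0.088 without scaling factors, so its sign depends on them.

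The ratio of Rps27l counts per 100 Rps27 counts within a library, which needs no scaling, was higher in most tumors. In CD4-Cre CD4+ cells the ratio was 18.3, 27.2, 24.4 and 9.36 in tumors (VM388, VM58, VM645 and VM98) and 9.01, 9.75 and 9.82 in controls. VM98 lay within the controls and the other 3 tumors above them. The VM98 CD4+ library is the one with 14.6% of counts in immunoglobulin genes, and the part of other cells in its values was not tested. In CD4-Cre spleen it was 26.7, 16.2 and 24.4 in tumors and 9.26, 12.01 and 14.9 in controls, without overlap. There mean Rps27l was 111 CPM in tumors and 119 CPM in controls, and mean Rps27 was 469 and 982 CPM. In CD4-CreERT2 spleen the ratio was 59.8, 27.4 and 118 against 16.7, 15.9 and 11.8, again without overlap. In CD4-CreERT2 CD4+ cells VM231 reached 59.9 while VM236 at 14.7 lay below the controls at 15.6 and 17.9. The ratio shows unequal change of the pair and was not tested. Cdkn1a, beside it, was at 49.7, 46.0, 24.1 and 4.25 CPM in the CD4-Cre CD4+ tumors and at 12, 13.1 and 8.93 CPM in their controls, lowest in VM98. In CD4-CreERT2 CD4+ tumors it was at 93.5 CPM in VM231 and 4.21 CPM in VM236, with controls at 5.72 and 8.62 CPM. In CD4-Cre spleen it was at 61.5, 51.1 and 18.8 CPM in tumors (VM388, VM58 and VM98) and at 12.6, 15.5 and 22.6 CPM in controls, so VM98 lay within controls while its ratio did not, and VM58 had the lowest tumor ratio. In CD4-CreERT2 spleen it was at 42.8, 15.8 and 77.7 CPM in tumors and at 4.34, 4.04 and 5.45 CPM in controls, without overlap. Tumors and controls overlapped in each of these groups for Mdm2, another listed p53 target. Mdm2 was at 130, 109, 97.2 and 108 CPM in CD4-Cre CD4+ tumors and at 126, 129 and 120 CPM in their controls. In CD4-CreERT2 spleen it was at 135, 101 and 84.4 CPM in tumors and at 124, 101 and 106 CPM in controls.

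**Figure D4:**
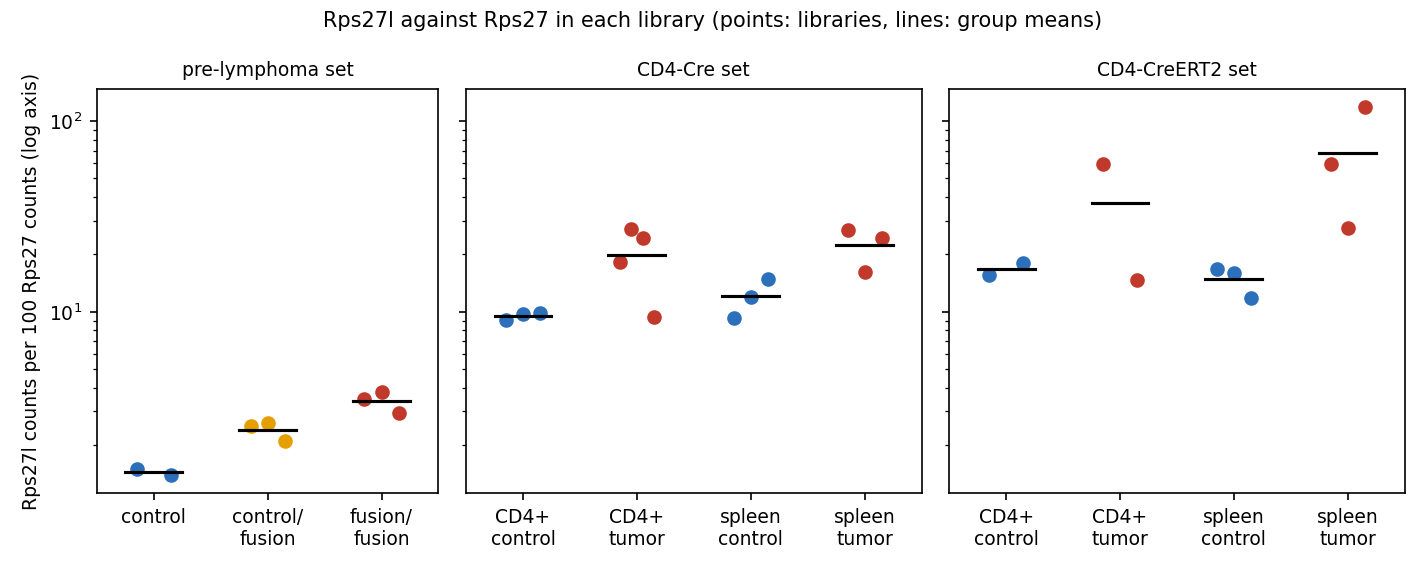
Rps27l counts per 100 Rps27 counts in every library by group, on a log axis; points are libraries and lines are group means. The pre-lymphoma groups step up from 1.40 to 3.78, and spleen tumors of both Cre sets, from 16.2 to 118, lie above the control spleens of their own set.

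Whether the tumor effect differs between CD4+ cells and spleen was tested as an interaction within each Cre set. By edgeR and by DESeq2, 0 of 82 members passed in either set, against 0.0% of all genes in both. In the CD4-Cre set 3 members, and in the CD4-CreERT2 set 0 members, had an unadjusted p under 0.05. The share of all genes at that threshold is not given here. The median difference was 0.54 in the CD4-Cre set (0.34 without the spleen tumor of VM58), where Rpl39 was at 1.02 ± 0.57 and Rpl36 at 0.93 ± 0.32. In the CD4-CreERT2 set it was -0.52, -0.29 without the spleen tumor of VM294, and 0.027 without scaling factors, so that sign depends on them. Rps27l there was at -1.38 ± 0.90 with edgeR adjusted p = 0.97.

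The tissue comparison sets normal CD4+ cells against whole spleen, and it gave opposite results in the 2 Cre sets. In CD4-Cre controls 54 of 81 members were lower in CD4+ cells and 0 higher, against 25.7% of all genes called in either direction and 12.8% called lower. The median was -0.49 against -0.02 for all genes, and 79 of 81 estimates were below 0. Without scaling factors 5 members passed with a median of -0.13 while the median of all genes was 0.34, so members lay 0.47 below the other genes either way. With the mouse as a block 71 members were lower, and the share of all genes called in that fit is not given here. Without the block, the 54 members became 11 without the CD4+ library of VM211, 24 without that of VM216, 16 without the spleen of VM216 and 13 without that of VM645, and 15 without all libraries numbered VM645. With the tumor libraries of the set in the same fit, 0 passed. CD4+ libraries lay below all spleens for 72 members and above for 1, against 21.6% and 23.3% of all genes.

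Rps27l had the lowest estimate among the common members. In CD4-Cre controls it was at 51.1, 62.9 and 67.8 CPM in CD4+ cells and at 90.9, 116 and 149 CPM in spleen, lower in the CD4+ cells of every mouse, with a log2 difference of -0.97 ± 0.19 (edgeR adjusted p = 0.0096, and 0.25 with the tumor libraries in the fit). Rpl35, at the rim of the exit tunnel, was at 70.0, 77.1 and 86.4 CPM in CD4+ cells and at 124, 143 and 150 CPM in spleen, a difference of -0.84 ± 0.12 (adjusted p = 0.0032). The tissues did not overlap in either gene. Rps25, needed for initiation at several viral internal entry sites, was at 269, 294 and 305 CPM in CD4+ cells and at 474, 476 and 540 CPM in spleen, a difference of -0.79 ± 0.11 (adjusted p = 0.0032). Rpl10, needed for subunit joining, was at 283, 342 and 328 CPM against 460, 551 and 546 CPM, a difference of -0.71 ± 0.13. For both, the highest CD4+ library lay below the lowest spleen. Rpl3l also passed, from levels of at most 2.19 CPM, and is named here after its values were seen. In the rim list 6 of 7 fell and among Diamond-Blackfan genes 7 of 10, where 12.8% of all genes were called lower. Rpl5, Rpl11, Rplp0 and Rplp1 did not pass (-0.35 to -0.32). Of the subunits, 24 of 32 small-subunit and 30 of 49 large-subunit members were lower, with medians of -0.51 and -0.48.

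In CD4-CreERT2 controls the direction was the other. There 10 of 81 members were higher in CD4+ cells and 0 lower, against 21.6% of all genes called in either direction and 10.3% called higher, so the members' share was near the background. Yet 79 of 81 estimates were above 0, the median was 0.32 against 0.00, and the CD4+ libraries lay above all spleens for 59 members and below for 1, against 24.7% and 26.8% of all genes. With the mouse as a block 16 rose, again without a share of all genes for that fit. Without scaling factors 5 rose with a median of 0.29, and with the tumor libraries in the fit 0 passed. Without the CD4+ library of A1 or A3, 1 or 0 rose, and without the spleen of A1, A2 or A3, 1, 0 or 16.

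Among the common members the P stalk proteins Rplp1 and Rplp2 had the highest estimates. Rplp1 was at 164 and 188 CPM in CD4+ cells and at 107, 120 and 139 CPM in spleen, without overlap, a rise of 0.56 ± 0.15 (edgeR adjusted p = 0.027). Rplp2 was at 116 and 126 CPM against 68.96, 85.7 and 98.2 CPM, a rise of 0.54 ± 0.16 (adjusted p = 0.042, and 0.065 without scaling factors). All 3 stalk proteins passed, with Rplp0 at 521 and 578 CPM against 388, 382 and 449 CPM, a difference of 0.46 ± 0.14. Rps16, a small-subunit protein of the decoding region, was at 201 and 196 CPM in CD4+ cells and at 133, 142 and 153 CPM in spleen, a difference of 0.51 ± 0.12 (adjusted p = 0.020). Rpl24 was higher by 0.50 ± 0.16. Rps27l was at 63.9 and 79.9 CPM in CD4+ cells and 56.0, 58.7 and 49.0 CPM in spleen, a difference of 0.42 ± 0.15 with adjusted p = 0.068, and it passed with the mouse as a block (adjusted p = 0.025).

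**Figure D5:**
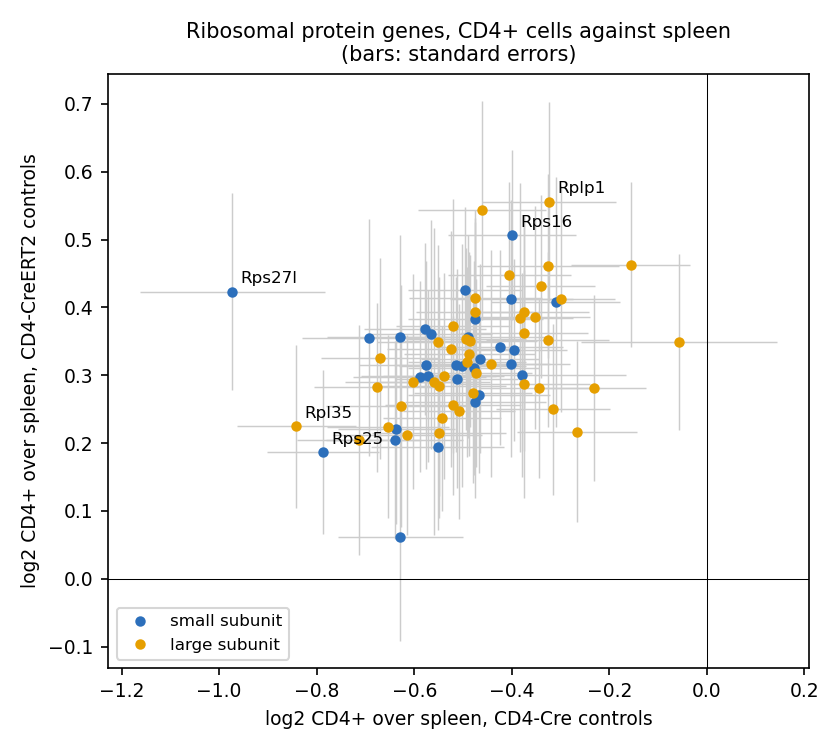
Log2 difference between CD4+ cells and spleen of control mice for 75 ribosomal protein genes with a mean log2 CPM of at least 3 in both Cre sets; the horizontal axis is the CD4-Cre and the vertical axis the CD4-CreERT2 set, bars are standard errors and colours mark the subunits. All 75 points lie left of 0 and above 0, and Rps27l has the lowest CD4-Cre value at -0.97.

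The difference between the sets was tested directly, in a comparison added after the data were seen, as the interaction of tissue and set over the 11 control libraries. The tissue difference was higher in CD4-CreERT2 controls for 66 of 82 members and lower for 0, against 13.1% of all genes called and 6.43% called higher. The median was 0.81 against -0.04 for all genes. Rps27l differed by 1.38 ± 0.26 (edgeR adjusted p = 0.0092), Rpl35 by 1.05, Rps12 by 1.03 and Rplp2 by 0.99 ± 0.22. Without scaling factors 8 members passed with a median of 0.43 against -0.41. The share of all genes called in this fit and in the following ones is not given here. With the mouse as a block 71 passed, and fewer without single libraries: 36 without the CD4+ library of VM211, 40 without the spleen of VM645, 42 without the CD4+ library of A1, 31 without the spleen of A2 and 5 without the CD4+ library of A3. In this comparison the set also differs in its count table, Cre driver and cell makeup, and these cannot be told apart.

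Within mice the share of counts lay on opposite sides of 0 in the controls of both sets. In CD4-Cre controls CD4+ cells minus spleen of the same mouse was -0.45, -0.15 and -0.13 percentage points. In CD4-CreERT2 mice it was 0.50 and 0.24 points in controls and 0.25 and 0.38 points in tumors. In CD4-Cre tumors it was -0.26, -0.18 and, in VM98, 0.83 points. The VM98 CD4+ library also has counts in 34546 genes, where no other library exceeds 24649.

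The spleens of the 2 sets were unlike in their cells. Neutrophil markers summed to 6919 to 49003 CPM in CD4-Cre and to 363 to 832 CPM in CD4-CreERT2 control spleens, with all 9 above 1 CPM on average in both. Macrophage and monocyte markers summed to 13178 to 24310 CPM and to 1491 to 1852 CPM in the same spleens, with 1 of 12 under 1 CPM in the latter. B cell markers were at 6724 to 7605 and 9375 to 9671 CPM. T cell markers separated CD4+ cells from spleen in both sets, with 8 of 8 higher in CD4+ cells, and 9 of 9 B cell markers lower. The part of this makeup in the members' tissue difference was not tested.

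Mitochondrial ribosomal proteins had medians of opposite sign in the sets too. In CD4-Cre controls 36 of 77 were lower and 2 higher in CD4+ cells, with a median of -0.39. Of all genes 12.8% were called lower and 12.9% higher there. In CD4-CreERT2 controls 13 of 78 were higher and 0 lower, with a median of 0.31, against 10.3% and 11.3% of all genes. The 2 higher ones in CD4-Cre controls were Mrpl9, by 0.48 ± 0.11, and Mrps6. Mrps6 was higher in CD4+ cells by 1.19 ± 0.17 in CD4-Cre and by 1.62 ± 0.24 in CD4-CreERT2 controls. Of 16 other TOP messages 4 were lower and 1 higher in CD4-Cre CD4+ cells, where Eif4ebp1, the inhibitor of cap binding, fell by 1.58 ± 0.19. In CD4-CreERT2 controls 1 of 16 was higher, Tpt1, by 0.86 ± 0.16, and Mtor was lower by 0.80 ± 0.18. Of 17 biogenesis genes few passed, with 1 higher and 1 lower in CD4-Cre and 0 higher and 2 lower in CD4-CreERT2 controls.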

How the data were processed

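Deposited tables hold raw counts per gene that, per the submitters' processing notes, come from HISAT2 2.1.0 alignment and HTSeq 0.5.4 counting on mm10, or mm10 and GRCm38 for 10 libraries. The annotation release is not given in the sources used here. Per the labels, RNA was extracted with an RNeasy Micro kit, amplified with SMART-Seq v4 and made into Nextera XT libraries. The pre-lymphoma and CD4-Cre tables list symbols, and the CD4-CreERT2 tables list Ensembl genes, of which 48970 of 49315 carry a symbol. Entries that name no gene, 27.2% to 46.0% of each of those first tables, were left out. They include reads that were ambiguous or not uniquely aligned.

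Genes were filtered with filterByExpr, scaled by TMM and tested in R 4.3.3 with edgeR 4.0.16 (glmQLFit and glmQLFTest), with p-values adjusted by Benjamini-Hochberg over all genes and called under 0.05. The standard error is the log2 fold change over the square root of F. Shares are of raw counts, and their 95% intervals (scipy 1.17.1) are exact Clopper-Pearson ones. Reads carry no molecular identifiers, so intervals cover counting error only. The scripts were tested on simulated data.

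The members and gene lists were chosen with earlier results of these data known. Members were named where their mean log2 CPM reached 3 and they passed, up to 4 in each direction, or up to 2 of the largest change where none passed, and a fixed list of members and paralogs. Other members are named outside this rule, some of them without that being said.

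Mouse numbers pair CD4+ and spleen libraries: all 10 pairs deviated together (correlations of 0.158 to 0.440), so the mouse was a block in an alternative. Other alternatives were RLE scaling, TMM without ribosomal or without receptor, immunoglobulin, haemoglobin and mitochondrial genes, no filter, DESeq2 1.42.0, other groups in the fit, no libraries numbered VM645, and each library left out. Library size without scaling factors and the comparison of the tissue difference between sets were added after the data were seen. Results of some members are not reported here.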

Additional observations from a re-analysis of the deposited data

Results flagged for a closer look

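In CD4-Cre CD4+ tumors, 1 library of 4 lay far from the others in 4 values, each time VM58 as the lowest. For the share of counts in ribosomal protein genes, its gap to the next tumor was 0.844 of the group's whole range. For Rpl18 the fraction was 0.878 (204 CPM against 291 to 303 CPM), for Rpl38 0.853 (48.8 CPM against 102 to 111 CPM) and for Rps18 0.832 (456 CPM against 832 to 908 CPM). The VM58 library also had 6.08 reads not uniquely aligned per 100 gene counts, against 9.31 to 12.8 in the other tumors. Mitochondrially encoded genes took 0.79% of its counts, against 1.49% to 2.88%. The part of these in the 4 values was not tested. In all, 77 values were examined in this way and 4 exceeded the 95% limit; chance exceeds it in about 1 of 20 groups.

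By a direct test, the tissue difference of the control mice was higher in the CD4-CreERT2 than in the CD4-Cre set for 66 members. Of all genes, 6.43% were called higher and 13.1% in either direction. The count of members called depended on the scaling factors, without which far fewer passed, and on single libraries. The members' median difference was 0.70 to 0.88 on the log2 scale when single libraries were left out. The comparison was chosen after the data were seen.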

How the results depend on the processing

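Of the counts of called members, 293 recomputed values stayed within 1.5 times of the reported ones and 55 did not. Of the medians 166 stayed and 8 moved, and of the shares 75 stayed and 2 moved. The share of all genes called under each alternative is not given here. Counts of members under the alternatives therefore cannot be set against a background. For fusion/fusion against control, members lower numbered 10 without scaling factors, 28 without the filter, 25 with DESeq2 and 9 with only the compared groups in the fit; leaving out 1 library gave 3 to 19, and 1 to 3 higher. For control/fusion against control, members higher numbered 2 and lower 21 without the filter, 2 and 16 with DESeq2, 2 and 15 with only the compared groups, and 2 higher without scaling factors; leaving out 1 library gave 0 higher and 0 to 4 lower. Between the fusion groups, leaving out 1 library gave 0 to 4 higher. In tumors, DESeq2 called 3 lower in CD4-Cre spleen and 2 higher in CD4-CreERT2 spleen, and leaving out 1 library in CD4-CreERT2 CD4+ cells gave 0 to 1 higher and 0 to 6 lower. The median in CD4-CreERT2 spleen was -0.29 without scaling factors and 0.062 to 0.50 on leaving out 1 library. For CD4+ cells against spleen, CD4-Cre controls gave 5 lower without scaling factors, 0 with all groups in the fit, 15 without the VM645 libraries and 11 to 48 on leaving out 1 library, with a median of -0.13 without scaling factors; CD4-CreERT2 controls gave 5 higher without scaling factors, 16 without the filter, 0 with all groups and 0 to 16 on leaving out 1 library. As to the pairing by mouse, the replicate block gave 71 lower for CD4-Cre controls, 16 higher for CD4-CreERT2 controls, 71 higher for the difference between sets and an interaction median of -0.29 in CD4-CreERT2; it moved no other count of calls. The interaction medians without scaling factors were 0.26 in CD4-Cre and 0.027 in CD4-CreERT2, the latter -0.66 to -0.29 on leaving out 1 library. The difference between sets gave 8 higher with a median of 0.43 without scaling factors, and 5 to 67 higher on leaving out 1 library. With receptor, immunoglobulin, haemoglobin and mitochondrial genes left out of the total, the share differed by -0.447 points for CD4-CreERT2 CD4+ tumors and by -0.509 points for CD4-Cre tissue. In CD4-Cre spleen the Rps27l estimate was 0.088 without scaling factors and 0.10 without the VM645 libraries, and -0.53 to 0.27 on leaving out 1 library; in CD4-CreERT2 CD4+ cells it was -0.34 to 0.97. The cause was not tested. Groups of 2 to 4 libraries limit every call, and depth limits Rpl10l, Rpl3l and Rpl39l.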
